A study of Mus musculus with 6 samples.

Results

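Polycomb and NuRD complexes silence genes in embryonic stem (ES) cells. The transcripts of 41 subunits and partners of these and other chromatin complexes were examined in mouse ES cells with an inducible human WBSCR1 transgene. A gene was included when at least 1 probe set (a group of short probes that reads 1 transcript) had the symbol of a listed member as its single annotated symbol. This held for 39 of the 41 genes, out of 18193 genes measured in this way, with 98 of the 45037 probe sets tested. Rybp was annotated only together with a second symbol on 2 probe sets, and Suv39h1 had no probe set of its own in the annotation used. The parental line was EBRTcH3 (EB3). At ROSA26, all cells held the coding sequence of human WBSCR1 joined to a 3xFLAG epitope, behind a promoter that tetracycline represses, and grew undifferentiated with leukemia inhibitory factor (LIF). Control cells had tetracycline, and induced cells had gone 24 h without it. Each of the clones A1, A3 and A4 is 1 derived clone and gave 1 control and 1 induced Affymetrix whole-genome mouse expression array, 6 in all. The study asked which mouse genes respond to WBSCR1, the counterpart of the translation factor Eif4h. The transgene and the removal of tetracycline cannot be told apart in this design, and induction of the transgene itself was not read on these arrays.

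Polycomb repressive complex 2 (PRC2) methylates lysine 27 of histone H3, with Ezh1 or Ezh2 as its enzyme. PRC1 ubiquitinates histone H2A through Ring1 or Rnf2, which pair with a PCGF protein, and CBX subunits can tether PRC1 to the PRC2 mark. In ES cells these complexes hold developmental genes silent but ready for use. NuRD combines the Chd4 remodeller with histone deacetylases, BAF slides and evicts nucleosomes, and Setdb1, Ehmt1 and Ehmt2 methylate lysine 9 of histone H3. Many of the subunits come as paralogues that replace each other in the complex.

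Values are log2 signals of the robust multiarray average (RMA). The leading probe set of a gene is the one with the highest mean over the 6 arrays, and all 39 leading probe sets had a mean of at least 5 log2, where the array medians lay between 5.11 and 5.18. Probes differ in affinity, so no probe set's level is set against that of another. The leading probe sets of Rbbp4, Rbbp7 and Trim28 are of the _x_at type, whose probes can also bind related transcripts. ES cell markers had a median level of 12.1 log2 over the arrays, and 0 of 12 differed between clones or on induction. In total RNA, fewer cells that express a gene and less RNA in each cell cannot be told apart.

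The differences that passed a test lay between clones. Arid1a, Pcgf2, Cbx7 and Chd4 were lower in A3 than in A1 and A4 on their leading probe sets, as were Bmi1 and Chd1 on another probe set, and Mta3 was higher in A3 on another probe set. No member passed the test of induction. The promoters of the 4 genes called on their leading probe set are shown so that the genes can be placed: each line gives the 250 bases before the first listed start, 5′ to 3′ on the gene's strand, from RefSeq (GRCm38.p6). The windows are chr4:133756770-133757019 on the minus strand for Arid1a, chr6:125095731-125095980 on the plus strand for Chd4, chr11:97699649-97699898 on the minus strand for Pcgf2 and chr15:79932647-79932896 on the minus strand for Cbx7. Capitals mark GGGCGG on either strand (the GC box core) and CACGTG (the E-box).
Arid1a: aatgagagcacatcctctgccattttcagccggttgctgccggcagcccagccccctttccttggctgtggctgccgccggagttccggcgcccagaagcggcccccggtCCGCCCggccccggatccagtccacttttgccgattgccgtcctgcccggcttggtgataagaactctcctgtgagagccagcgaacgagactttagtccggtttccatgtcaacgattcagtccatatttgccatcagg
Chd4: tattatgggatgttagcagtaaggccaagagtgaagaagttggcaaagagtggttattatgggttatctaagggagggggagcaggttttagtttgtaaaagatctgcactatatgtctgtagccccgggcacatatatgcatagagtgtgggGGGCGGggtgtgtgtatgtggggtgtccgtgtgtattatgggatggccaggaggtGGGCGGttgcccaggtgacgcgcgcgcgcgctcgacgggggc
Pcgf2: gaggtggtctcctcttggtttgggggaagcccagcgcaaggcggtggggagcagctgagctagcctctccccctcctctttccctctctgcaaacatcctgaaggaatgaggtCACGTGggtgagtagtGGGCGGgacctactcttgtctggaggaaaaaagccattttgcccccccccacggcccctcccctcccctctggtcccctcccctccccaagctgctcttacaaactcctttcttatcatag
Cbx7: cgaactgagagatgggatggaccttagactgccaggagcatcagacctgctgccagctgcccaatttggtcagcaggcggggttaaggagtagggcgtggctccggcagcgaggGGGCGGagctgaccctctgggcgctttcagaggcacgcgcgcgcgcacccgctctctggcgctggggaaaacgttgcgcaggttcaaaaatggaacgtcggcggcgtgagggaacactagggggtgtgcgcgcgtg

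Of the 39 genes, 34 had an entry in the promoter table. GGGCGG or its complement CCGCCC was found in 28 of these 34 windows (82.4%), against 49.9% of the 14452 windows of all genes with a probe set and an entry. CACGTG stood in 6 (17.6%, against 7.56%), and CCAAT or ATTGG in 11 (32.4%, against 35.7%). CG dinucleotides numbered 5 to 39 in the windows of the members, with a median of 21 against 13 in all. Pcgf2 had the fewest, 5, with Arid1a at 18, Chd4 at 12 and Cbx7 at 23. The windows of all genes include genes with a leading mean below 5 log2, of which the members have none. These are counts of letters in a window, and neither binding nor methylation was measured.

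Arid1a showed the widest range of clone means among the leading probe sets called. It encodes the large DNA-binding subunit that defines the canonical BAF complex. In control cells of A1, A3 and A4 its leading probe set read 11.35, 10.20 and 11.19 log2, and in induced cells 10.85, 9.77 and 11.15. Both A3 arrays lay below the other 4. A3 minus A1 was -1.11 ± 0.14 log2 (SE) and A3 minus A4 was -1.18 ± 0.14, with an adjusted p of 0.0063 for the F test of limma between clones. The second probe set was also lower in A3, by -0.67 ± 0.13 against A1 and -0.66 ± 0.13 against A4 (adjusted p 0.035). Without the induced A3 array the adjusted p of the leading probe set was 0.0651, with a difference from A4 of -1.10. The second probe set missed the threshold without any 1 array but the control A4 array (adjusted p 0.0590 to 0.302).

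Pcgf2 encodes Mel18, a PCGF subunit that pairs with Ring1 or Rnf2 in PRC1. It read 8.72, 7.88 and 8.76 log2 in the control arrays of A1, A3 and A4, and 8.48, 7.77 and 8.55 in the induced arrays. A3 minus A1 was -0.77 ± 0.11 log2 and A3 minus A4 was -0.83 ± 0.11 (adjusted p of limma 0.0098). Both probe sets of the gene passed, the second with -0.80 ± 0.15 and -0.74 ± 0.15 (adjusted p 0.031). In both conditions A3 was the lowest clone. The call of the leading probe set was lost without the control A3 array (adjusted p 0.0782) and without the induced A3 array (0.0660). That of the second was lost without any 1 array other than the control A1 and induced A4 arrays (0.0527 to 0.272), and in the fit without condition (0.0941).

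Cbx7, the CBX protein best known for PRC1 in self-renewing ES cells, read 10.13, 9.25 and 10.08 log2 in control arrays and 9.84, 9.25 and 9.96 in induced arrays. The A3 arrays were again below the rest. The differences were -0.74 ± 0.12 log2 from A1 and -0.77 ± 0.12 from A4 (adjusted p of limma 0.016). Its other probe sets did not pass, with A3 lower by -0.43 on 1 and higher by 0.097 on the other, which had a mean below 5 log2, against the mean of A1 and A4. The call was lost without the control A1 array (adjusted p 0.0550), the control A3 array (0.123), the induced A1 array (0.0508) or the induced A3 array (0.0764).

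Chd4, the remodelling ATPase of NuRD, read 9.53, 9.04 and 9.52 log2 in control arrays and 9.36, 8.83 and 9.36 in induced arrays. A3 minus A1 was -0.51 ± 0.11 log2 and A3 minus A4 was -0.51 ± 0.11, close to the threshold of 0.05 at an adjusted p of 0.048 (limma). Its other 2 probe sets also read lower in A3, by -0.21 and -0.29 against the mean of A1 and A4, without passing. Leaving out any 1 of the 6 arrays ended the call, with adjusted p from 0.104 to 0.304, as did renewed quantile normalization (0.0683).

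**Figure D1:**
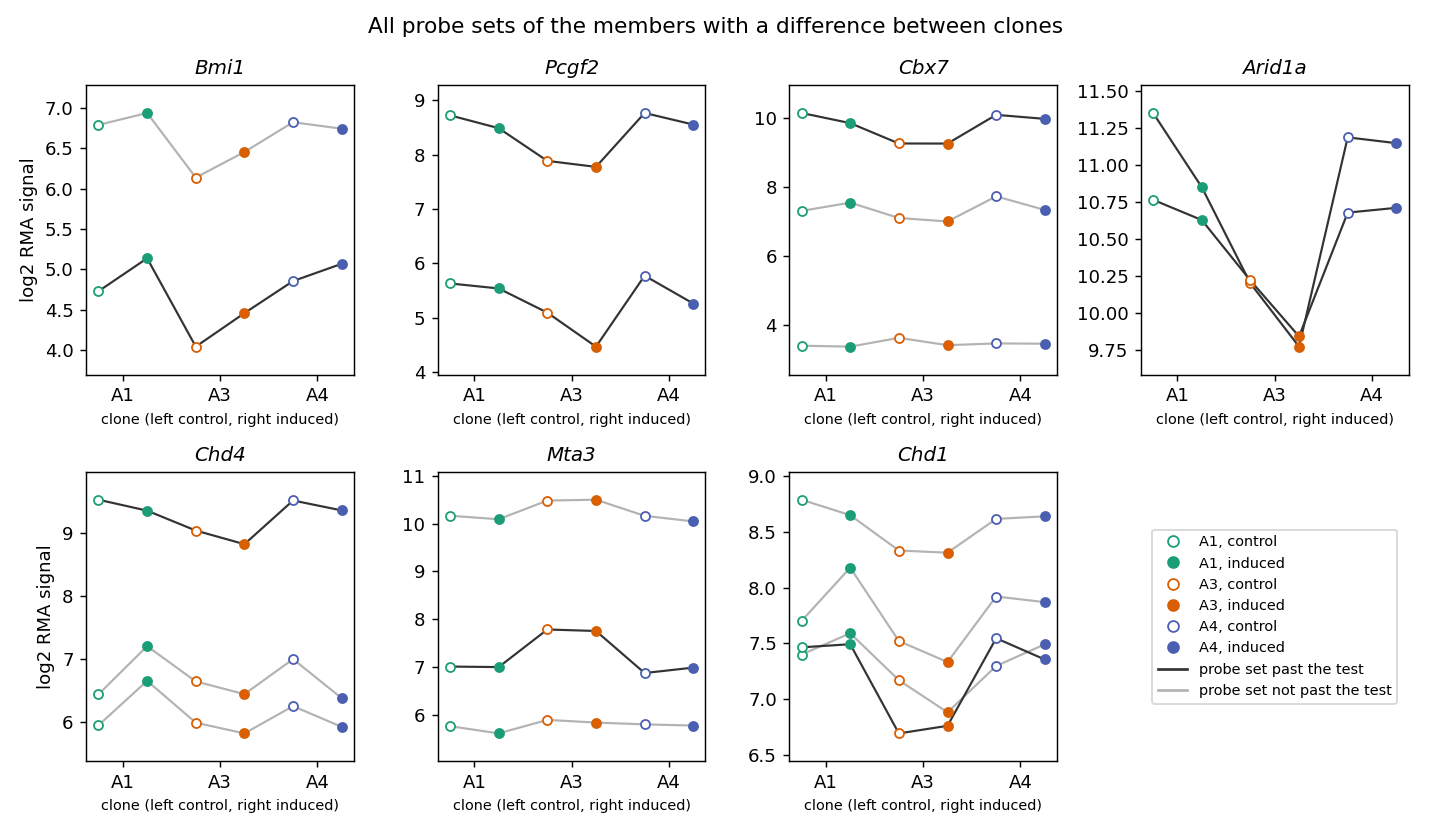
RMA signal (vertical axes, log2, with a separate scale for each gene) of every probe set of the 7 members with a difference between clones. Open points are control arrays, filled points induced arrays and colours the clones; black lines join probe sets past the F test, grey lines the others, and A3 is the low clone in all black lines but that of Mta3.

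Over the 98 probe sets of the members, 9 (9.18%) passed the F test between clones at an adjusted p under 0.05, where 5.54% of all probe sets did, and 8.91% of the brighter ones, whose mean reached 5 log2. At that mean, 8 of 86 member probe sets passed (9.3%), so the share of calls lay near the background. The direction was less even. Of the 9, 8 were lower in A3 (8.16%, background 3.34%) and 1 was higher (1.02%, background 2.2%). The backgrounds by direction, here and below, are over all probe sets and not the brighter ones. The 9 probe sets belonged to 7 genes. Against A1 alone, A3 was lower on 10 and higher on 1 (background 6.6%, of which 3.96% lower and 2.64% higher), and against A4 alone it was lower on 8 and higher on 2 (background 6.3%, of which 3.78% lower and 2.52% higher). These comparisons share the A3 arrays. Between A4 and A1, 0 of 98 passed in limma, beside a background of 0.0178%. At an unadjusted p under 0.05 it was 1 of 98 (1.02%, background 4.34%).

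Leaving out any 1 array lowered the number of calls over all probe sets and over the members, least without an A4 array. For the members the number rested on single arrays. It was 0 without the induced A3 array, 2 without the control A3 array, 3 without the induced A1 array and 4 without the control A1 array. In these fits a clone is left with 1 array, which is assumed to vary like the others.

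The leading probe sets can be read by the position of A3 alone, with no test. Both A3 arrays lay below the other 4 for 18 of 39 genes (46.2%), against 18.5% of all genes and 25.2% of those with a leading mean of at least 5 log2. They lay above the other 4 for 6 of 39 (15.4%), against 23.1% and 25%. The median of A3 minus the mean of A1 and A4 was -0.15 log2 over the members and 0.012 over all genes with a leading mean of at least 5 log2.

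**Figure D2:**
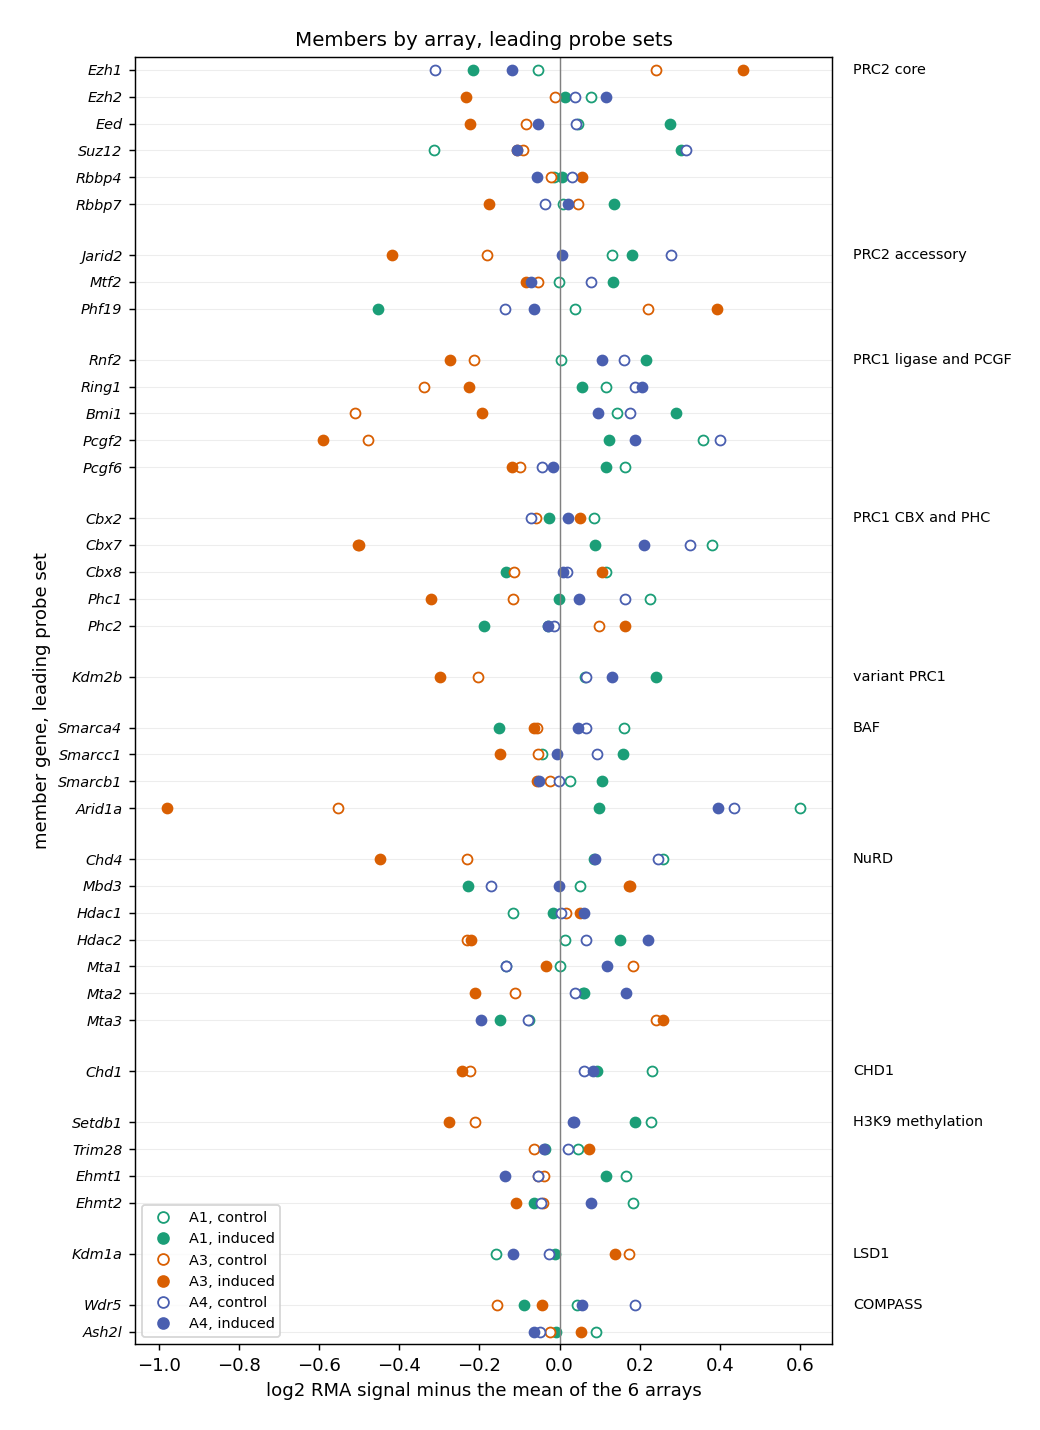
Deviation of each array from the mean of the 6 arrays (horizontal axis, log2 RMA signal) for the leading probe sets of the 39 members, grouped by complex. Open points are control and filled points induced arrays, coloured by clone; A3 lies below the other clones for all 5 PRC1 ligase and PCGF genes and farthest below for Arid1a.

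Within several complexes A3 lay above the other clones for 1 paralogue and below them for another. The values of the members in this and the next 4 paragraphs, other than those above, were chosen after they had been seen, and no difference between paralogues was tested. Ezh1 and Ezh2 are the alternative enzymes of PRC2. Ezh1 read 7.79, 8.09 and 7.54 log2 in the control arrays of A1, A3 and A4, and 7.63, 8.30 and 7.73 in the induced arrays, with A3 above the rest. A3 minus A4 was 0.56 ± 0.13 log2 (adjusted p of limma 0.0497) and A3 minus A1 was 0.49 ± 0.13 (0.0787), while the F test gave 0.0806. Ezh1 has 4 probe sets, of which A3 was higher on 2 and lower on the 2 with means below 5 log2. Ezh2 read 11.05, 10.96 and 11.01 in control arrays and 10.98, 10.74 and 11.09 in induced arrays, so that A3 was lowest by small margins (-0.17 ± 0.12 from A1).

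The rest of the PRC2 core and its accessory factors did not pass. Eed, which reads the PRC2 mark, was lower in A3 by -0.31 ± 0.13 log2 against A1 and -0.15 ± 0.13 against A4, without passing. Suz12, the scaffold subunit, differed by -0.093 ± 0.22 and -0.20 ± 0.22, and A3 was below the mean of A1 and A4 on all 6 of its probe sets. The histone chaperones Rbbp4 and Rbbp7, which PRC2 shares with NuRD, differed by 0.023 ± 0.11 and -0.14 ± 0.13 from A1. Among the accessory factors, Jarid2, which helps PRC2 to bind chromatin, was -0.45 ± 0.13 from A1 and -0.44 ± 0.13 from A4 (adjusted p 0.118), with A3 lower on all 3 probe sets. Phf19, one of the Polycomb-like proteins, had both A3 arrays above the others, at 0.51 ± 0.17 and 0.41 ± 0.17. Its relative Mtf2 was lower in A3 on all 6 probe sets, by -0.061 to -0.38 against the mean of A1 and A4, and none passed.

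Among the groups of members, A3 lay lowest in the catalytic part of PRC1. For all 5 genes both A3 arrays were below the other 4, with a median of -0.42 log2 against the mean of A1 and A4. The median was also -0.42 log2 over the 15 COMPASS subunits and H3K27 demethylases outside the members, described below. Bmi1, the PCGF subunit next to Pcgf2, read 6.79, 6.14 and 6.82 log2 in control arrays and 6.94, 6.45 and 6.74 in induced arrays. Its leading probe set had an F test value of 0.0747 with -0.57 ± 0.13 against A1 (adjusted p of limma 0.0447), and its second probe set passed at 0.018 with -0.68 ± 0.12 and -0.71 ± 0.12, although its mean was below 5 log2. This call was lost without either A1 array (0.0629 and 0.0779) or either A3 array (0.129 and 0.116), and in the fit without condition (0.0660). Pcgf6, which belongs to a variant PRC1, was -0.25 ± 0.11 from A1 and -0.079 ± 0.11 from A4. Both E3 ligases lay lower in A3 without passing, Ring1 by -0.37 ± 0.11 and -0.48 ± 0.11 (F test 0.0928) and Rnf2 by -0.35 ± 0.12 and -0.38 ± 0.12 (0.193). The other probe sets of Rnf2 were mixed, with A3 lower on 3 of 5 in all. Kdm2b, which brings variant PRC1 to CpG islands, was lower in A3 on both probe sets (-0.38 and -0.51 against the mean of A1 and A4). The second had an F test value of 0.0595 with -0.54 ± 0.12 against A1 (adjusted p of limma 0.038).

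Of the other CBX and PHC subunits none passed the test. Cbx2 read 8.03, 7.88 and 7.87 log2 in control arrays and 7.91, 7.99 and 7.96 in induced arrays, and A3 minus A1 was -0.034 ± 0.12. For Cbx8 that difference was 0.0051 ± 0.14, with all arrays between 4.90 and 5.15. The clones overlapped for both on these leading probe sets. On the other Cbx2 probe set both A3 arrays (6.08 and 5.99) lay above the rest (5.60 to 5.78), and A3 minus A1 was 0.38 ± 0.12, with an F test value of 0.197. Phc1, a Polyhomeotic protein that clusters PRC1, was lower in A3 by -0.33 ± 0.11 and -0.32 ± 0.11, whereas Phc2 was higher by 0.24 ± 0.12 and 0.15 ± 0.12, each without passing.

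NuRD held members on both sides. Mta3 on its second probe set read 7.02, 7.79 and 6.88 log2 in control arrays and 7.01, 7.76 and 6.99 in induced arrays. It was higher in A3 by 0.76 ± 0.11 than in A1 and by 0.84 ± 0.11 than in A4 (adjusted p of limma 0.010), and this call was lost without the control A3 array (0.0780) or the induced A3 array (0.0746). The leading probe set of Mta3 pointed the same way with 0.36 ± 0.11 and 0.39 ± 0.11 (0.142). Against A1, its paralogues in the complex did not pass, with Mta2 at -0.22 ± 0.12 and Mta1 at 0.14 ± 0.14. Of the deacetylases, Hdac2 had both A3 arrays below the others (-0.31 ± 0.11 and -0.37 ± 0.11) and Hdac1 differed by 0.10 ± 0.11 and 0.0017 ± 0.11. Mbd3, which joins the deacetylase and remodelling parts of NuRD, was at 0.26 ± 0.14 from both.

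BAF, H3K9 methylation and the remaining genes gave few further differences. Apart from Arid1a, the BAF ATPase Smarca4 and the core subunits Smarcc1 and Smarcb1 had A3 minus A1 between -0.16 and -0.065 log2 on their leading probe sets. Another Smarcc1 probe set gave -0.59 ± 0.19 from A1 and -0.57 ± 0.19 from A4, with both A3 arrays below the rest and an F test value of 0.168. Chd1, a remodeller of transcribed chromatin, was lower in A3 on all 4 probe sets, and 1 of them passed, with -0.75 ± 0.12 from A1 and -0.72 ± 0.12 from A4 (adjusted p of limma 0.017). That call was lost without either A1 array (0.0623 and 0.0776) or either A3 array (0.124 and 0.0946). Setdb1 was -0.45 ± 0.11 from A1 (0.0548) and -0.28 ± 0.11 from A4 on its leading probe set, but higher in A3 by 0.22 against the mean of A1 and A4 on another. Its cofactor Trim28 differed by 0.00036 ± 0.12 from A1, and Ehmt1 and Ehmt2 by -0.19 ± 0.11 and -0.14 ± 0.13. The H3K4 demethylase Kdm1a (LSD1) had both A3 arrays above the rest, at 0.24 ± 0.12 from A1 and 0.23 ± 0.12 from A4. Wdr5 and Ash2l, core parts of the H3K4 methyltransferases, were at -0.077 ± 0.12 and -0.026 ± 0.12 from A1. None of these passed apart from Chd1.

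Related subunits outside the 41 genes gave calls in the same 2 directions on their leading probe sets, where 6.84% of all genes passed between clones. Of 22 other Polycomb subunits and partners, 4 were lower in A3 and 1 was higher. The lower ones included the PRC2 partner Epop (A3 minus A4 -1.09 ± 0.18 log2), the DNA-binding factor Yy1 (-1.06 ± 0.13) and the PRC1 subunit Cbx6 (-0.90 ± 0.12). Of 18 other NuRD, SIN3 and CoREST subunits, Rcor1 was lower (-1.07 ± 0.16), and Hdac3 (0.58 ± 0.12) and Sin3b (0.46 ± 0.11) were higher. The 3 BAF subunits called among 19 were all lower: Smarcc2 (-0.79 ± 0.13), Smarcd1 (-0.78 ± 0.13) and Smarcd3 (-0.76 ± 0.13).

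Of 17 further H3K9 methylation and heterochromatin genes, Cbx5 (HP1 alpha, -0.99 ± 0.11) and Pphln1 (-0.72 ± 0.13) were lower in A3. Of 15 COMPASS subunits and H3K27 demethylases, the methyltransferase genes Kmt2d (-1.48 ± 0.16), Setd1b (-0.96 ± 0.11) and Kmt2a (-0.89 ± 0.12) were lower. Among 72 measured developmental genes that carry the Polycomb mark in ES cells, 1 passed, Gata6, which was lower in A3 (-0.59 ± 0.12). The median of A3 minus the mean of A1 and A4 over these 72 was 0.075 log2, and 27 of them had a mean of at least 5 log2.

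**Figure D3:**
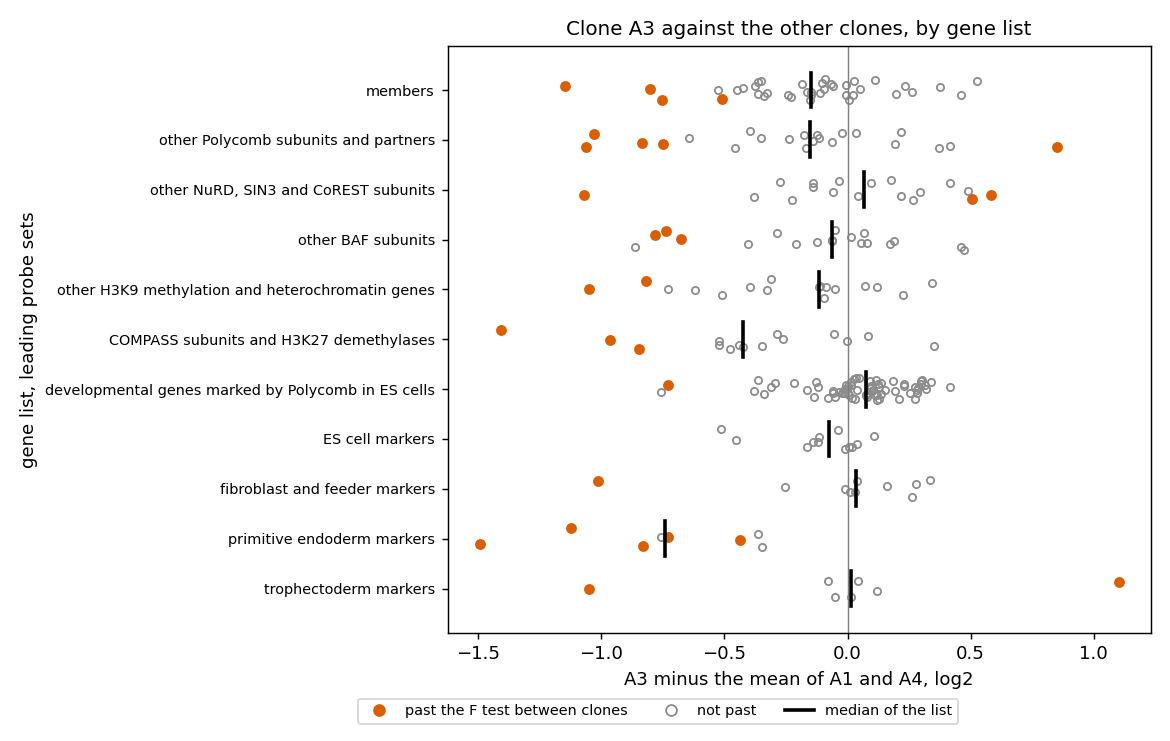
A3 minus the mean of A1 and A4 (horizontal axis, log2) for the leading probe set of each gene in the members, the related subunit lists and the marker lists. Filled points passed the F test between clones, open points did not and bars mark list medians. The medians are -0.15 for the members, -0.42 for the list of COMPASS subunits and H3K27 demethylases and -0.74 for the primitive endoderm markers.

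Some markers of other cell types and the Actb measure of RNA quality also differed in A3. Of 8 primitive endoderm markers, 5 were lower in A3 (Col4a1, Dab2, Sox7, Gata6 and Pdgfra), and their summed linear signal was 522 and 529 in the A3 arrays, 979 and 1074 in A1 and 768 and 801 in A4. Of 7 trophectoderm markers, Krt8 was lower and Tfap2c higher in A3, with sums of 923 and 859 in A3 and 614 to 736 in the other arrays. Of 10 fibroblast markers, Twist1 was lower, with sums of 345 to 406 over all arrays. The 3′ minus 5′ signal of Actb was 0.32 and 0.29 log2 in A3 and 0.40 to 0.45 in the other arrays. That of Gapdh was -0.0073 and 0.078 log2 in A3 and 0.054 to 0.10 in the other arrays. The mean 18S signal was 6.61 and 7.27 log2 in A3, 5.66 and 7.03 in A1 and 5.99 and 5.99 in A4. On Gapdh and 18S the A3 arrays overlapped the others. The part of these in the clone differences was not tested.

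On induction, 0 of the 98 probe sets passed limma, as did 0% of all 45037, and the smallest adjusted p among the members was 0.999942. At an unadjusted p under 0.05 there were 2 of 98 (2.04%, background 1.5%), a Setdb1 probe set with a mean below 5 log2 at 0.33 ± 0.14 log2 and an Rnf2 probe set that does not lead at 0.28 ± 0.11. Over the 39 leading probe sets the difference was negative for 26 and positive for 13, and this split was not counted over all genes. The median was -0.014 log2, against 0.011 over all genes with a leading mean of at least 5 log2. The median size regardless of sign was 0.045 log2 over the members and 0.057 over those genes. Apart from Arid1a, whose difference was -0.32 ± 0.41, the difference of each member was within 0.2 log2 of 0. The 95% intervals reached 0.20 to 0.96 log2 to each side, 0.29 at the median. With clone as a block they reached 0.21 to 0.41 log2, 0.23 at the median, and 0.27 in place of 0.96 for Arid1a, whose interval then did not cross 0.

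In the fit without a clone block, the leading probe sets with the smallest p were those of Phc1, Smarca4, Chd4 and Jarid2. With clone as a block the smallest was that of Arid1a (unadjusted p of limma 0.024). Phc1 read 12.09, 11.75 and 12.02 log2 in the control arrays of A1, A3 and A4, and 11.86, 11.54 and 11.91 in the induced arrays, with a difference of -0.18 ± 0.14 (unadjusted p of limma 0.232). Smarca4 read 10.57, 10.36 and 10.48 in control arrays and 10.26, 10.35 and 10.46 in induced arrays, with -0.11 ± 0.10 (0.304). Control and induced arrays overlapped for both. For Chd4, with the values above, the difference was -0.18 ± 0.19 (0.375). Jarid2 read 11.97, 11.66 and 12.12 in control arrays and 12.02, 11.42 and 11.85 in induced arrays, with -0.15 ± 0.18 (0.426), and it was positive in A1 alone. Without the induced A3 array the difference for Jarid2 was 0.017.

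The direction was the same in all 3 clones for 10 of 39 genes (25.6%), against 21.2% of all genes and 20.4% of those with a leading mean of at least 5 log2. Lower in induced cells were 8 of them, Arid1a, Pcgf2, Cbx7, Phc1, Chd4, Smarca4, Setdb1 and Ehmt1, and higher were Hdac1 and Hdac2, none past the test. Some of these changes were very small, such as -0.0025 log2 for Cbx7 in A3 and -0.0033 for Setdb1 in A4. Other probe sets varied: the second of Pcgf2 fell in all clones, that of Arid1a rose by 0.032 in A4 and 1 of Setdb1 rose in all clones. Among the probe sets called lower in A3, the leading ones of Arid1a, Pcgf2, Cbx7 and Chd4 were thus lower on induction in all clones, whereas that of Bmi1 read higher in all clones (0.41, 0.42 and 0.21 log2 in A1, A3 and A4) and that of Chd1 was mixed. With clone as a block, 0 of 98 passed and 5 (5.1%, background 3.42%) had an unadjusted p under 0.05. They were a Bmi1 probe set (0.35 ± 0.096 log2, unadjusted p of limma 0.0073), the second Pcgf2 probe set (-0.41 ± 0.12, 0.010), the Setdb1 probe set named above (0.017), the leading Arid1a probe set (-0.32 ± 0.12, 0.024) and the Rnf2 probe set named above (0.031). The adjusted p of each was 0.999861.

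**Figure D4:**
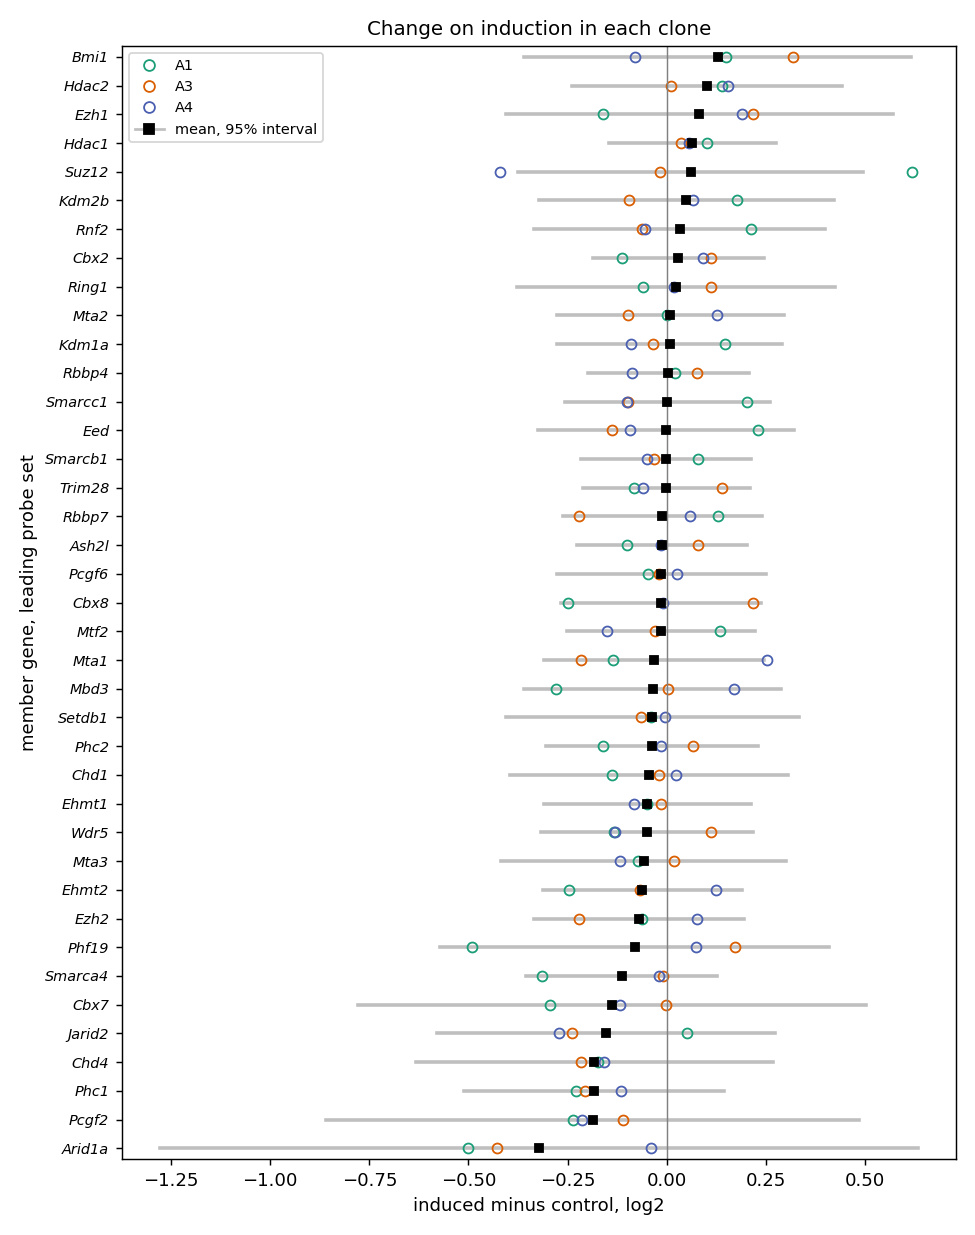
Induced minus control (horizontal axis, log2) for the leading probe sets of the 39 members, ordered by the mean. Open circles are the clones, black squares the mean of the 3 clones and grey bars its 95% interval from limma; every bar, from the fit without a clone block, crosses 0, and Suz12 has its A1 and A4 values on opposite sides.

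The induced A1 array and the control A4 array were both above the other 4 arrays on 23 of the 98 probe sets (23.5%), against 6.99% of all probe sets. At a mean of at least 5 log2 it was 21 of 86 (24.4%), against 8.33%. The 23 belonged to 14 genes, so probe sets of the same gene are counted more than once. Of the 39 leading probe sets 6 were among them, those of Suz12, Jarid2, Mtf2, Rnf2, Bmi1 and Smarcc1. The share over the leading probe sets of all genes was not counted. This choice fixes a positive change in A1 and a negative one in A4. The sizes over the 23 were 0.28 log2 at the median in A1 and -0.33 in A4, and the change in A3, which the choice does not fix, was -0.061.

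Suz12 held 5 of the 23. Its leading probe set read 10.01 log2 in control and 10.63 in induced A1, 10.24 and 10.22 in A3, and 10.64 and 10.22 in A4. Another Suz12 probe set changed by 1.08 in A1 and -0.65 in A4. For Smarca4 the pattern was on the probe set that does not lead, which read 8.26 and 9.02 in A1, 8.59 and 8.35 in A3 and 9.01 and 8.24 in A4, while the leading one changed by -0.31, -0.0091 and -0.020. Chd4 showed it on both probe sets that do not lead, 1 of which read 6.44 and 7.21 in A1 and 7.00 and 6.38 in A4, and not on the leading one. Probe sets of 1 gene thus differed across the same arrays. With 1 array for each clone and condition, a difference between clones in the response to induction leaves no residual spread and was not tested.

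**Figure D5:**
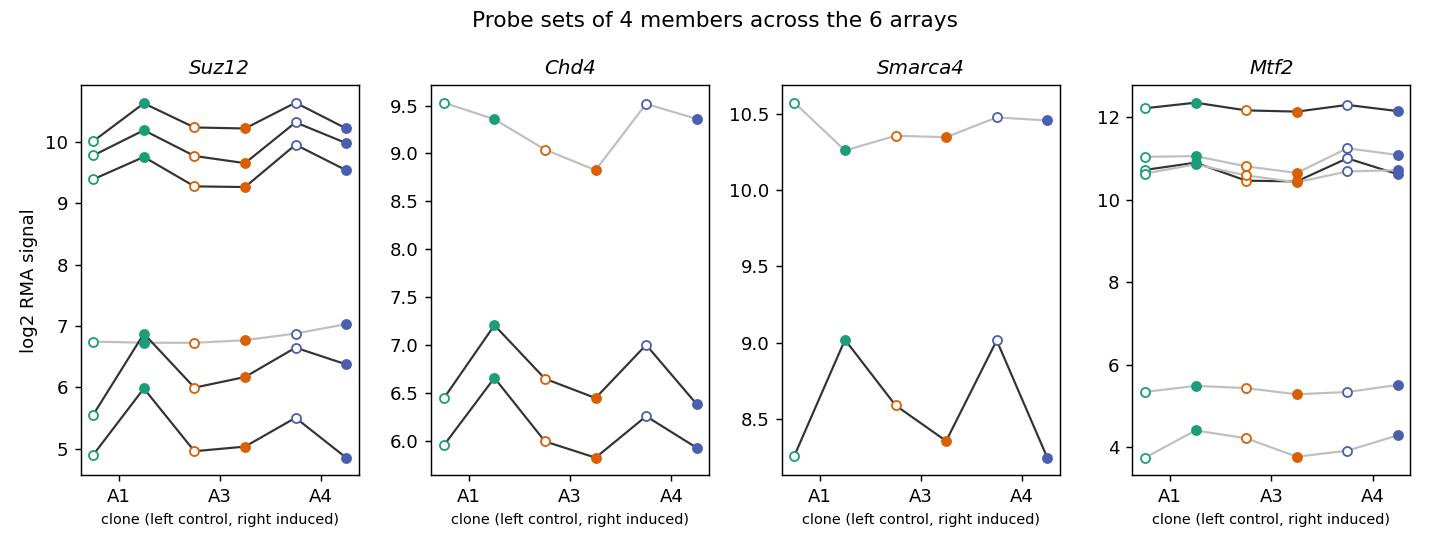
RMA signal (vertical axes, log2, with a separate scale for each gene) of every probe set of Suz12, Chd4, Smarca4 and Mtf2 in the 6 arrays. Open points are control and filled points induced arrays; black lines join probe sets on which the induced A1 and the control A4 array lie above the other 4, as for 5 of the 6 Suz12 probe sets.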

How the data were processed

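Total RNA of 3 ES clones, each with tetracycline and after 24 h without it, was hybridized to 6 arrays. The authors summarised them by RMA with the Bioconductor affy package (version not given in the sources used here) and deposited log2 signals for 45101 probe sets, all used as deposited. The 64 control probe sets were read only for RNA quality. The platform annotation gave 1 symbol for 34945 probe sets, several for 932 and none for 9160, and genes were named only from single symbols. Groups and clones came from the sample labels, which give no batch.

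Induction was tested with lmFit and eBayes of limma 3.58.1 (R 4.3.3), two-sided, with condition as the only term, as in the study's methods. Clones were compared by an F test after fitting both condition and clone, with pairwise contrasts, and p-values were adjusted over 45037 probe sets (Benjamini-Hochberg, threshold 0.05). Replicate numbers 1, 2 and 3 are clones A1, A3 and A4, so they pair the arrays. Deviations from the group means correlated within clones at 0.313, 0.670 and 0.290. Control A4 with induced A1 gave 0.369 and control A1 with induced A4 gave 0.348. Pairs of A3 with another clone gave -0.489 to -0.455. By these values only A3 was set apart by its pairing. The fits were tested on simulated data with independent noise and no clone differences other than those put in for the clone test. These data do not show how the induction fit without a block behaves where clones differ. Alternatives were other scalings, filters, variance models, thresholds, the clone block, the methods' t-test and leaving out arrays.

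All members were described on their leading probe set, with full values for those called between clones and the 4 with the smallest p on induction; of each related list up to 3 genes with the widest range of clone means among those called were named. The members and lists were chosen with earlier results of these data known. Each clone is 1 derivation, so p-values measure the spread between these arrays. Promoters came from RefSeq (GRCm38.p6). The number of arrays limits the precision. Figures were made in Python 3.11.15 (matplotlib 3.10.9).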

Additional observations from a re-analysis of the deposited data

Results flagged for a closer look

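On 3 of the 98 member probe sets the change on induction was at least 0.5 log2 upward in A1 and at least 0.5 log2 downward in A4. Such changes were not counted over all probe sets, so 3 cannot be called many or few. The induced A1 and control A4 arrays were both above the other 4 on 6.99% of all probe sets. The change in A1 minus that in A4 was 1.73 log2 for a probe set of Suz12 that does not lead, 1.53 log2 for the probe set of Smarca4 that does not lead and 1.38 log2 for a probe set of Chd4 that does not lead. Each clone has 1 array for a condition, so these differences were not tested. The mean 18S signal was 5.66 and 7.03 log2 in the control and induced arrays of A1, 6.61 and 7.27 in those of A3 and 5.99 in both arrays of A4. A link between 18S and these changes was not tested.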

How the results depend on the processing

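Counts of member probe sets called on induction were 0 under all alternatives, including the replicate block and the methods' t-test, so the block changed no call. Between clones, the members called numbered 9 and became 16 with trended and robust variances, and 0 to 8 when single arrays were left out. Against A1, A3 gave 11 member probe sets, which became 19 with trended and robust variances, 17 at an adjusted p under 0.1 and fewer without single arrays. Against A4 it gave 10, which became 20, 17 and 1 to 7 in the same order. Over all probe sets, 2496 were called between clones, 4060 at an adjusted p under 0.1 and 589 to 1959 without single arrays. The counts fell to 1 against A1 without the control A1 array, to 0 without the induced A1 array, and to 1 against A4 without the control A4 array. The change of Jarid2 on induction turned from -0.15 to 0.017 log2 without the induced A3 array (range without single arrays -0.28 to 0.017). The differences of the 9 member probe sets called between clones kept their direction in all 138 refits and missed the threshold in 38; those of Ezh1 and of genes outside the members were not refitted one by one. Without the condition term the calls of Chd4 (adjusted p 0.0573), the second Pcgf2 probe set (0.0941) and Bmi1 (0.0660) were lost, and that of Chd4 also with cyclic loess (0.0563) and array weights (0.0580). The causes were not tested. No depth is defined for arrays, and probe sets with means below 5 log2 are the least certain.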
